A study of Macaca fascicularis with 86 samples.

Results

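The regions described here are the mesenchyme-rich captures from gastrulating embryos of the crab-eating macaque, from all sections at E18 and from sections 1 to 5 at E20. Each of the 86 captured regions of the series was scored by m, the mean log2(TPM + 1) of 6 matrix genes of connective tissue cells (COL1A1, COL1A2, COL3A1, POSTN, LUM and DCN). The 10 E18 regions with the highest m, of 50, were set against the 10 with the highest m among the 28 regions of E20 sections 1 to 5, so 20 regions in all were chosen by measured values of these 6 genes. TPM is a share of reads scaled by transcript length, as computed by the authors.

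Embryos were cryosectioned, regions of 5 to 50 cells were cut out with a laser, and polyadenylated RNA was sequenced by Geo-seq, a method for very small tissue samples. The labels name the stage, embryo, section and sector of each region and give embryo as the tissue. They name no strain, treatment, sex or germ layer, so yolk sac is a working name for E20 sections 1 to 5 that was checked against marker genes. The E18 regions came from 2 embryos, 3 from embryo 1 and 7 from embryo 2. All 10 E20 regions came from the same single embryo, 3 from section 1, 2 each from sections 2, 3 and 4, and 1 from section 5. With 1 animal at E20, stage and animal cannot be told apart, and the p-values below rest on the spread between the 2 E18 embryos pooled over genes, not on that of each gene.

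Extraembryonic mesenchyme is the loose connective tissue that lines the amnion, the yolk sac and the stalk that joins them to the placenta. In the yolk sac wall it lies against an endoderm that secretes plasma proteins, and it is where the first blood cells and vessels form. The score used for selection reads its matrix: fibrillar collagens give tensile strength, and the small proteoglycans lumican (LUM) and decorin (DCN) bind collagen fibrils.

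Depth is unknown, since TPM keeps no counts. The chosen E18 regions had 7815 to 13286 genes at a TPM of at least 1 (median 11989) and the E20 regions 7576 to 10674 (median 8318). Mitochondrially encoded genes held 12.3% to 46.7% of the summed TPM at E18 (median 19.8%) and 13.5% to 26.0% at E20 (median 18.1%). The E18 embryos did not overlap in either measure: embryo 1 had 7815 to 10584 genes and 12.3% to 15.7% and embryo 2 had 11418 to 13286 genes and 16.2% to 46.7%. Of 11 genes looked at that every cell uses, HPRT1 was at 0 in 4 of the 20 regions and PGAM1 in 1, so a value of 0 is given below as listed at 0 and not as absence. Between the 2 E18 embryos' chosen regions, the mean of embryo 2 was higher by 1 log2 unit or more for 3720 genes and that of embryo 1 for 836, with no test.

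Scores of the chosen regions overlapped between stages. At E18 m ran from 7.23 to 9.42 (median 8.44) and at E20 from 8.23 to 9.57 (median 8.68). The last E18 region inside had an m of 7.23 and the first outside 6.87. At E20 these values were 8.23 and 8.20, so there was almost no step between chosen and other regions in sections 1 to 5.

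The 6 genes of the score did not contribute equally at the 2 stages. LUM read 76.9 to 439 TPM at E18 (median 209) and 1160.5 to 7124 TPM at E20 (median 2633), with every E20 region above every E18 region. COL1A1, a chain of type I collagen, lay the other way, at 56.7 to 931 TPM at E18 (median 224) and 39.5 to 100.1 TPM at E20 (median 63.1). COL3A1, the type III collagen chain, was at 518 to 3631 TPM at E18 (median 1051) and 927 to 1735 TPM at E20 (median 1383). These values chose the regions, so they are a description. LUM and COL1A1 are among the calls counted over all genes below, and nothing is read from their calls.

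For COL1A2, the second type I chain, the range was 143 to 957 TPM at E18 (median 363) and 180.4 to 497 TPM at E20 (median 279.9). POSTN, a matricellular protein of collagen-rich tissue, read 83.0 to 563 TPM at E18 (median 321) and 94.3 to 841 TPM at E20 (median 381). DCN was at 47.8 to 236 TPM at E18 (median 149) and 119 to 628 TPM at E20 (median 389.5). All of these ranges overlapped.

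Set against COL3A1 in the same region, LUM made a TPM ratio of 0.089 to 0.42 at E18 (median 0.14) and 0.97 to 4.10 at E20 (median 1.98). COL1A1 over COL3A1 was 0.081 to 0.60 at E18 (median 0.23) and 0.026 to 0.081 at E20 (median 0.048). In the 18 regions of E20 sections 1 to 5 that were not chosen, LUM over COL3A1 was 1.07 to 8.58 (median 2.22).

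**Figure D1:**
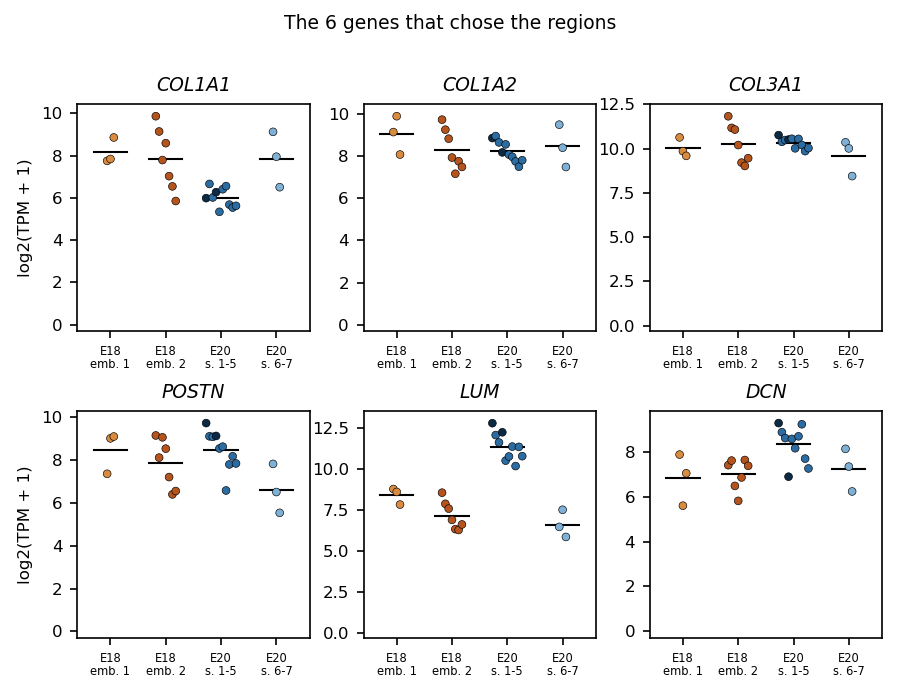
Levels of the 6 selection genes, as log2(TPM + 1), in every chosen region of E18 embryo 1 (3), E18 embryo 2 (7) and E20 sections 1 to 5 (10), and in 3 regions of E20 sections 6 and 7. Points are regions, bars are group means, and near-black points are the 2 E20 regions lowest in endoderm genes; LUM at E20 stands at 1160.5 to 7124 TPM, above all other points.

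Sections 6 and 7 of the same E20 embryo were looked at for comparison. The 3 regions of sections 6 and 7 with the highest m scored 8.57 (section 7 sector 4), 7.96 (section 6 sector 4) and 6.68 (section 7 sector 2), the last below every chosen E18 region. Their LUM was 87.9, 182 and 57.1 TPM and their COL1A1 557, 246 and 89.8 TPM, in that order. LUM over COL3A1 in them was 0.067 to 0.18, within or below the E18 range.

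Markers of other cell types showed what else had been captured. Endoderm genes were high in 8 of the 10 E20 regions. APOA1, an apolipoprotein, was at 0 to 75.7 TPM at E18 (median 23.9) and 11.9 to 10003 TPM at E20 (median 4222). TTR, the thyroid hormone carrier transthyretin, was at 0 to 18.9 TPM at E18 (median 0.83) and 2.78 to 1156 TPM at E20 (median 657).

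Over 24 endoderm markers in the table the mean log2(TPM + 1) was 1.13 to 1.85 at E18 and 1.86 to 8.18 at E20, and their summed TPM 273 to 3888 and 391 to 80616. AHSG was listed at 0 in all 10 E18 regions. The 2 E20 regions lowest in endoderm were section 2 sector 7, with APOA1 at 11.9 TPM and TTR at 2.78, and section 1 sector 6, with APOA1 at 111 TPM and TTR at 42.1. Their list levels were 1.86 and 3.51, and the other 8 lay between 5.74 and 8.18. The 18 regions of sections 1 to 5 not chosen had still more, with APOA1 at a median of 12028 TPM.

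The E18 regions carried amnion and surface ectoderm genes instead. The mean level of 15 such markers was 3.38 to 5.31 at E18 (median 4.34) and 1.05 to 1.78 at E20 (median 1.31), with summed TPM of 714 to 4976 and 813 to 1930. GABRP and KRT17 were listed at 0 in all 10 E20 regions. Over all 50 E18 regions m and the amnion level went together (Pearson r = 0.90, Spearman rho = 0.75), regions of an embryo sharing their animal and sections. Among the 10 chosen E18 regions r was 0.063, and over the 28 regions of E20 sections 1 to 5 the r of m with the endoderm level was -0.51.

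Epithelial markers were at a mean level of 4.39 to 6.30 at E18 and 3.09 to 5.11 at E20, over 10 genes in the table. Their summed TPM was 1155 to 4509 at E18 (median 1683) and 1761 to 4053 at E20 (median 2557), so the 2 measures went opposite ways. Epiblast, streak and nascent mesoderm markers were at 1.62 to 4.10 and 0.55 to 1.32, over 17 genes. TBXT, MESP1 and TBX6, which define the streak and nascent mesoderm, were listed at 0 in all 10 E20 regions. In these captures of several cells, fewer cells of a type and less RNA per cell cannot be told apart.

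**Figure D2:**
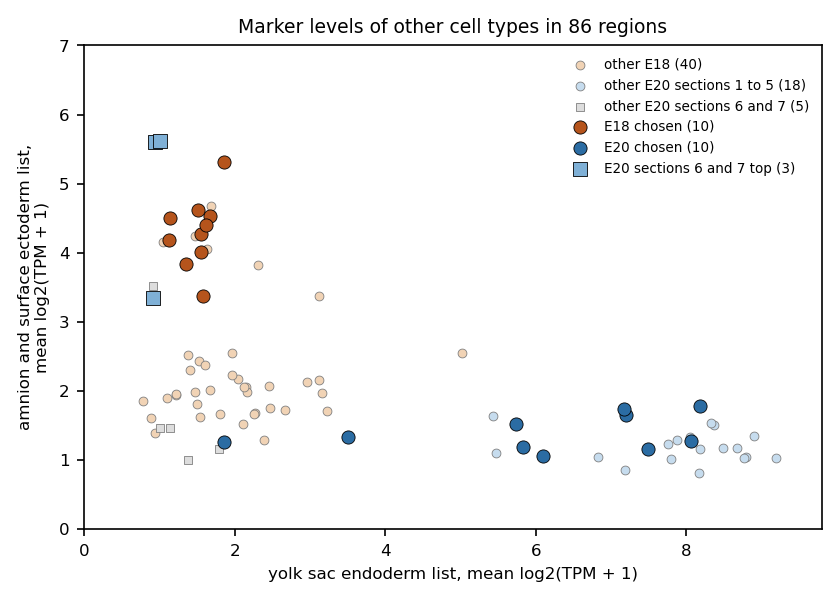
Mean log2(TPM + 1) of the amnion and surface ectoderm list against that of the yolk sac endoderm list in all 86 regions. Each symbol is a region; the 10 chosen E18 regions lie at 3.38 to 5.31 on the amnion axis, 8 of the 10 chosen E20 regions lie at 5.74 to 8.18 on the endoderm axis, and the 3 regions of sections 6 and 7 lie at 0.91 to 1.01 on the endoderm axis and 3.35 to 5.61 on the amnion axis.

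The stage comparison asked which other genes differed between the mesenchyme-rich regions of the 2 stages. Log2(TPM + 1) was averaged within each embryo, and limma compared E20 with E18 over these 3 embryo means, p-values being adjusted by the Benjamini-Hochberg method over 12711 genes. At an adjusted p under 0.05, 235 genes were higher at E20 (1.85% of those tested) and 500 lower (3.93%). A separate description, with no test, counted genes whose 10 regions of a stage all lay above the 10 of the other: 180 were above at E20 (1.42%) and 323 below (2.54%). Both rules together held 104 genes higher and 167 lower.

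The median difference over all genes was -0.46, so list medians below are read against that value. Counts of calls in a list are read against the shares over all genes, 1.85% higher and 3.93% lower. An unadjusted p under 0.05 (limma) was met by 2148 of the 12711 genes, in either direction. List counts at that level are read against it and are not results on their own. A list with 1 call in a direction is not read as a result about that list. The share of calls that were higher was 32.0%. It was 57.3% after quantile normalization, which left 130 higher and 97 lower and put the median of all genes at 0.015, and 24.6% without the mitochondrially encoded genes, with 123 higher and 378 lower and a median of -0.72. For 1 of the 735 called genes, CGA, the E20 mean lay between the means of the 2 E18 embryos. For 11 the E18 embryos stood further apart than the stages.

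Plasma protein genes of the endoderm were among the largest differences at E20. FGB, the fibrinogen beta chain, was at 0 to 4.90 TPM at E18 (median 0.34) and 27.5 to 23022 TPM at E20 (median 4286). The difference on the log2(TPM + 1) scale was 10.55 ± 0.74 (SE; limma, adjusted p = 2.0e-41). AFP, alpha-fetoprotein, was at 0 to 4.55 TPM (median 0.32) and 15.2 to 15341 TPM (median 2129), a difference of 9.63 ± 0.78 (limma, adjusted p = 5.5e-31). Neither gene overlapped between stages.

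The fibrinogen gamma and alpha chains FGG and FGA differed by 9.57 ± 0.83 and 7.60 ± 0.96, and APOB, the apolipoprotein of large lipoprotein particles, by 6.13 ± 1.15. SMLR1 differed by 5.52 ± 1.19. AHSG, the plasma glycoprotein fetuin-A, was listed at 0 in every E18 region and read 4.37 to 3428 TPM at E20.

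Of 24 endoderm markers tested, 13 were higher at E20 and 0 lower, with a median difference of 6.15. With only the 2 E20 regions lowest in endoderm 13 of the markers were tested, 3 higher and 1 lower, with a median of 2.31. These counts and medians are therefore not over the same genes. APOA1 differed by 6.59 ± 0.61 and TTR by 7.17 ± 0.85 in all 10 regions, and neither passed with those 2 regions alone, nor did FGA. Within the 10 E20 regions, FGB, AFP, FGG, FGA, AHSG, APOB and SMLR1 each went with the endoderm list (r from 0.85 to 1.00, the list holding all of them but SMLR1).

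A second set of genes was high in all 10 E20 regions, including the 2 with little endoderm. SLC5A12, a sodium-coupled carrier of lactate and other monocarboxylates, was at 0 to 1.51 TPM at E18 (median 0.78) and 251.5 to 862 TPM at E20 (median 588). In the 2 E20 regions lowest in endoderm it was at 393 and 862 TPM, and in the 18 regions not chosen at a median of 99.9. The difference between stages was 8.44 ± 0.89 (limma, adjusted p = 2.8e-18), and all E20 regions lay above all E18 regions.

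CCN4, a secreted matricellular protein also known as WISP1, was at 0.15 to 5.93 TPM at E18 (median 2.64) and 270.1 to 1065 TPM at E20 (median 486). The 2 endoderm-poor regions had 441 and 1065 TPM, and the difference was 7.40 ± 0.76 (limma, adjusted p = 1.9e-19). STMN2, a tubulin-binding stathmin known from neurons, was at 0 to 61.7 TPM (median 1.64) and 82.1 to 724 TPM (median 449). Its difference was 6.97 ± 0.82 (limma, adjusted p = 1.7e-14), with the 2 endoderm-poor regions at 82.1 and 724 TPM, the lowest and highest of the 10.

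AQP1, a water channel, was at 0.016 to 153 TPM at E18 (median 6.22) and 745 to 2600.1 TPM at E20 (median 1865), a difference of 6.74 ± 0.61 (limma, adjusted p = 1.0e-24). AGTR1, the type 1 angiotensin II receptor, was at 0 to 10.7 TPM (median 0) and 53.0 to 365 TPM (median 168), a difference of 6.49 ± 0.99 (limma, adjusted p = 2.1e-08). For both genes the E20 regions lay above all E18 regions. In the 10 E20 regions the r of these 5 genes with the endoderm level ran from -0.29 to 0.22.

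CD44, the hyaluronan receptor, was at 0.49 to 9.62 TPM at E18 (median 4.2) and 65.1 to 350.2 TPM at E20 (median 132). It was the 1 gene of 21 tested receptors and adhesion molecules of mesenchyme to rise (4.74 ± 0.77; limma, adjusted p = 2.6e-07), and none of them fell. FRZB, a secreted WNT antagonist, was at 7.97 to 76.0 TPM and 364 to 940.4 TPM (difference 4.49 ± 0.61; limma, adjusted p = 8.4e-11). LOX, the enzyme that cross-links collagen and elastin, was at 0.21 to 24.2 TPM and 48.9 to 133 TPM (difference 4.06 ± 0.82; limma, adjusted p = 9.2e-05). All 3 genes were separate between stages. In the 2 endoderm-poor regions CD44 was at 125 and 350.2 TPM, FRZB at 783 and 940.4 and LOX at 119 and 133.

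**Figure D3:**
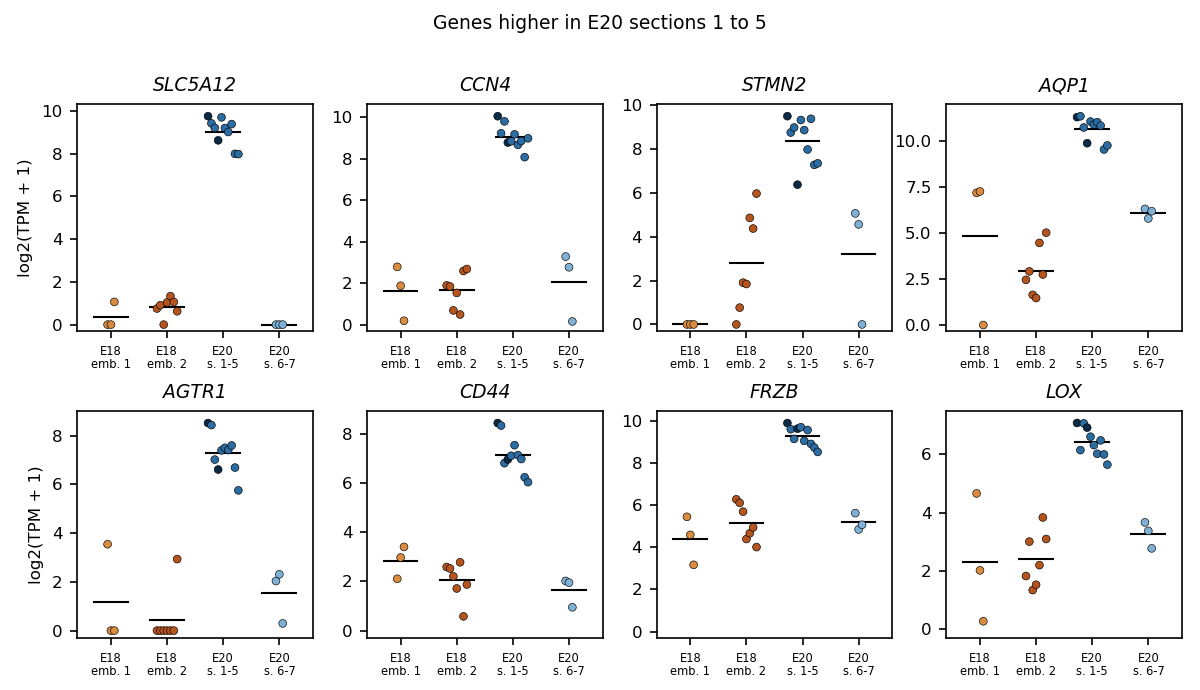
SLC5A12, CCN4, STMN2, AQP1, AGTR1, CD44, FRZB and LOX as log2(TPM + 1) in the chosen regions and in 3 regions of E20 sections 6 and 7. Points are regions, bars are group means, and near-black points are the 2 E20 regions lowest in endoderm genes; for all 8 genes the 10 regions of E20 sections 1 to 5 lie above every E18 region and above the 3 regions of sections 6 and 7.

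In all, 74 of the 235 genes higher at E20 were higher by 1 log2 unit or more, on average, in the chosen E20 regions than in the other 18 of sections 1 to 5, and 93 were lower there. Across the 10 E20 regions 40 of the 235 had an r over 0.8 with the endoderm level and 160 an r under 0.3. Of all 12711 tested genes, 174 had an r over 0.8. For an r under 0.3, and for the 74 and 93 genes, no count over all tested genes is given, so those numbers are a description. With only the 2 endoderm-poor regions to stand for E20, 180 of the 235 and 458 of the 500 were called in the same direction. Those 2 regions are among the 10 and the E18 regions were the same, so part of this agreement was built in. That fit called 1464 of 11967 genes in all. With the endoderm level as a covariate over single regions 95 and 280 were called in the same direction, and 25 and 2 had the opposite sign. Among the genes named here, FGA, APOB, SMLR1, APOA1, TTR, COL21A1, MFAP4, HAS2, LAMA1, AGRN, COL4A2, PLAU, HAND2, MSX1, GATA2, MEIS1, CXCL12, ID3, AXIN2, SMO, HOXA9, HOXA10, DNMT3B, HBZ, KDR, PAGE4, TFAP2C, CGA, ADM and FABP1 lost their call with that covariate.

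A group of 38 genes was called, separate between stages, at a mean TPM of at least 5 and at least 1 log2 unit higher in the chosen than in the other regions of sections 1 to 5. That cut was chosen after the values were seen. Beside the 8 genes above it held BCO2, which cleaves carotenoids (5.49 ± 1.13), HTRA1, a secreted serine protease (5.02 ± 1.14), COL8A2, a chain of type VIII collagen (4.27 ± 1.15), DPP4, a cell-surface peptidase (3.70 ± 0.79), and CTSL, the lysosomal protease cathepsin L (3.67 ± 0.61). DPP4 was at 2.07 to 16.0 TPM at E18 and 41.2 to 153 TPM at E20, and CTSL at 1.03 to 222 TPM and 284 to 742 TPM.

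A fixed list of other collagens of connective tissue was lower at E20 or did not pass. COL8A2, which was higher at E20 (4.27 ± 1.15), was not on that list. Of 13 listed collagens tested, 6 fell and 0 rose, and 4 of the 6 were separate between stages. The median difference of the list was -2.33, against -0.46 for all genes. COL6A3, a chain of the microfibril-forming type VI collagen, was at 15.4 to 330.5 TPM at E18 (median 86.2) and 0 to 6.91 TPM at E20 (median 2.50), a difference of -4.34 ± 0.69 (limma, adjusted p = 9.0e-08).

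Its partner chains COL6A1 and COL6A2 fell by 3.40 ± 0.62 and 3.28 ± 0.63 on the log2 scale. COL6A2 was at 126 to 1379 TPM (median 373) at E18 and 14.6 to 102 TPM (median 34.8) at E20. The basement membrane collagen COL18A1 was at 59.8 to 199 TPM (median 83.3) and 4.18 to 12.5 TPM (median 7.00) and fell by 3.50 ± 0.64. COL5A1 fell by 3.00 ± 0.96 and COL21A1 by 2.33 ± 0.66, and after quantile normalization, where 4 collagens passed, these 2 did not. COL21A1 also did not pass with the 2 endoderm-poor regions. COL5A2, a chain of the fibril-regulating type V collagen, was at 22.3 to 207 TPM at E18 and 18.1 to 130 TPM at E20 and did not pass. Of the 13 listed collagens, 0 had a difference above 0.

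Among 18 tested genes for folding, processing and cross-linking of collagen, LOX rose and PCOLCE fell. PCOLCE, which speeds removal of the procollagen C-propeptide, was at 76.7 to 351 TPM (median 237) and 2.70 to 46.4 TPM (median 22.1), all E20 regions below all E18 regions (difference -3.29 ± 0.61; limma, adjusted p = 1.2e-05). SERPINH1, the collagen chaperone, was at 164 to 1279 TPM and 120.2 to 377 TPM and did not pass (adjusted p = 0.36).

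Of 26 tested proteoglycans, elastic fibre and matricellular proteins, 4 fell and 0 rose, with a median of -0.61. MFAP4 and FBLN2, both elastic fibre proteins, fell by 3.94 ± 1.00 and 3.68 ± 0.87. HAS2, which makes hyaluronan, fell by 3.40 ± 0.75, and VCAN, a large hyaluronan-binding proteoglycan, by 3.24 ± 0.61, from 33.2 to 672 TPM (median 151) to 2.07 to 49.4 TPM (median 14.7). After quantile normalization 0 of the 26 passed. SPARC and FN1, abundant matrix glycoproteins, were at 243 to 1700 and 239.6 to 2203 TPM at E18 and 536 to 1227 and 78.5 to 988 TPM at E20, and neither passed.

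Basement membrane genes fell in 3 of 14 cases and rose in 0 (LAMA1 by 2.59 ± 0.84, AGRN by 2.41 ± 0.77, COL4A2 by 1.95 ± 0.63; median of the list -1.48), and 0 passed after quantile normalization. Of 15 matrix proteases and inhibitors 1 fell, the urokinase PLAU, by 4.26 ± 0.67, and 0 rose; with the endoderm covariate 0 fell and 1 rose. Of 17 contractile genes 0 passed in limma and 5 had an unadjusted p under 0.05. TAGLN, a smooth muscle actin-binding protein, was at 13.5 to 221 TPM at E18 and 4.67 to 152 at E20, and ACTA2, smooth muscle actin, at 0 to 24.6 and 0 to 2.95.

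**Figure D4:**
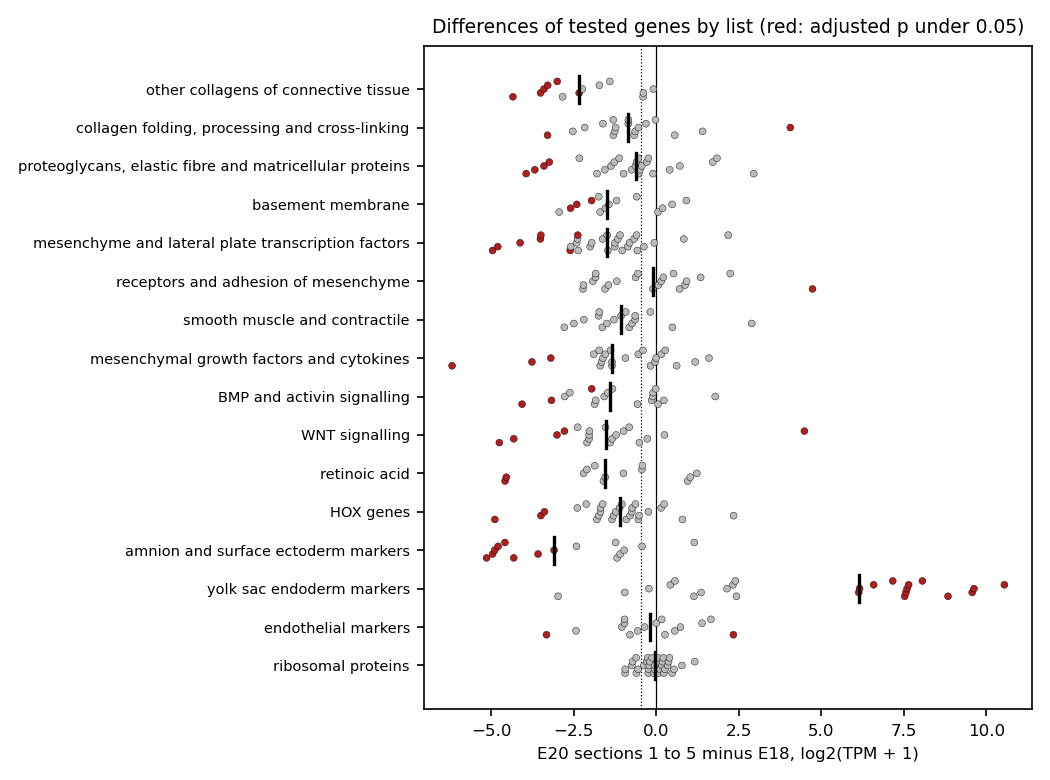
Differences between E20 sections 1 to 5 and E18 on the log2(TPM + 1) scale for the tested genes of 16 lists, 1 point per gene, red where the adjusted p was under 0.05. Thick bars are list medians and the dotted line is the median of all 12711 genes, -0.46; 13 endoderm genes lie to the right and 8 amnion and 6 collagen genes to the left.

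Transcription factors of mesenchyme and lateral plate were lower at E20 or did not pass. HAND1, a helix-loop-helix factor of extraembryonic mesoderm, was at 44.8 to 536 TPM at E18 (median 153) and 46.7 to 247 TPM at E20 (median 166), and the difference of -0.37 ± 0.64 did not pass. TBX20 was at 16.6 to 105 TPM and 11.6 to 45.5 TPM, and PITX1 at 9.31 to 278 and 15.6 to 99.0; neither passed. FOXF1, a forkhead factor of extraembryonic and lateral mesoderm, was at 0.70 to 26.6 TPM at E18 (median 11.3) and 20.1 to 56.6 at E20 (median 33.9), a difference of 2.18 ± 0.82 (limma, adjusted p = 0.095).

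Of 30 such factors tested, 7 fell and 0 rose, and the median was -1.48. HAND2 was at 10.3 to 338 TPM at E18 (median 141) and 0 to 36.0 at E20 (median 12), a difference of -4.12 ± 0.63 (limma, adjusted p = 2.0e-08). MSX2, a homeobox gene induced by BMP, was at 4.67 to 75.4 TPM (median 28.6) and 0 to 0.79 TPM (median 0.018), with no overlap (difference -4.80 ± 0.88; limma, adjusted p = 1.1e-05). ISL1 fell by 4.95 ± 0.77, MSX1 by 3.51 ± 0.75, GATA2 by 3.49 ± 0.96, MEIS1 by 2.60 ± 0.69 and TBX3 by 2.37 ± 0.73.

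ISL1 is also on the amnion list, whose level was higher in the E18 regions, and the part of that list in these falls was not tested. After quantile normalization 2 of the 7 passed, ISL1 and HAND2, and HAND2 did not pass with the endoderm covariate. TWIST1 was at 0 to 18 TPM at E18 and listed at 0 in all 10 E20 regions, and it did not pass. GATA4 was at or near 0 at both stages, with at most 3.61 TPM.

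Of the general mesenchyme markers that the score had not used, VIM, PDGFRA and PDGFRB read above 0 in all or most regions of both stages. VIM, the intermediate filament of mesenchyme, was at 203 to 1065 TPM at E18 and 899 to 1797 TPM at E20. The platelet-derived growth factor receptors were at 2.66 to 27.4 and 0 to 5.77 TPM for PDGFRA and 0.077 to 41.5 and 10.2 to 34.4 TPM for PDGFRB. None of the 3 passed (limma, adjusted p from 0.15 to 0.70), and the median of the 21 receptors and adhesion molecules was -0.10. Of the 21, 10 had a difference above 0. Others were low at E20: NT5E read 0 to 14.8 TPM at E18 and 0 to 3.20 TPM at E20, and ENG 3.36 to 31.9 and 0 to 12.3 TPM.

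Secreted factors fell in 3 of 23 tested cases and rose in 0, with a median of -1.34. HGF, the ligand of the MET receptor, was at 7.08 to 226 TPM at E18 (median 108) and 0 to 0.13 TPM at E20 (median 0), with every E20 region below every E18 region (difference -6.18 ± 0.75; limma, adjusted p = 1.3e-13). The chemokine CXCL12 was at 65.1 to 259.7 TPM (median 144) and 0 to 77.5 TPM (median 14) and fell by 3.76 ± 0.61, a call lost with the endoderm covariate. CXCL14 fell by 3.19 ± 0.93, and did not pass after quantile normalization. VEGFA, the main endothelial growth factor, was at 23.3 to 99.3 TPM and 27.8 to 105 TPM (difference -0.035 ± 0.63; not passed).

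In the insulin-like growth factor axis 1 of 13 genes fell, the binding protein IGFBP5, by 3.62 ± 0.76, and 0 rose. It did not pass after quantile normalization. IGF2, a fetal growth factor, was at 178 to 951 TPM at E18 and 191 to 1094 TPM at E20 and did not pass.

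In BMP signalling the target ID1 was at 39.3 to 778 TPM at E18 (median 402) and 0 to 118 TPM at E20 (median 36.1), a difference of -4.06 ± 0.62 (limma, adjusted p = 2.1e-08). In the 2 endoderm-poor E20 regions ID1 was at 0 and 0.80 TPM, the lowest of the 10. BAMBI, a decoy receptor that BMP induces, fell by 3.17 ± 0.64 and ID3 by 1.95 ± 0.62, so 3 of 18 genes fell and 0 rose (median -1.39). After quantile normalization ID3 did not pass. The ligand BMP4 was at 58.0 to 535 TPM and 27.8 to 169 TPM and missed the threshold (-1.83 ± 0.63; limma, adjusted p = 0.059).

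Of the WNT ligands tested, WNT2 and WNT6 were lower at E20, and the antagonist FRZB was higher. WNT2 was at 1.29 to 96.7 TPM at E18 (median 31.2) and listed at 0 in all 10 E20 regions (limma, adjusted p = 5.8e-05). WNT6 was at 6.95 to 71.5 TPM (median 13.5) and 0 to 0.81 TPM (median 0) and fell by 4.31 ± 0.99. WNT6 is also on the amnion list, whose level was higher in the E18 regions, and the part of that list in its fall was not tested. Targets of the pathway fell too, LEF1 by 2.78 ± 0.68 and AXIN2 by 3.00 ± 0.91, giving 4 lower and 1 higher of 19 tested (median -1.53). After quantile normalization 1 was lower, WNT2, and 1 higher, FRZB.

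Among retinoic acid genes the receptor RARG was at 3.87 to 102 TPM at E18 and 0 to 1.25 TPM at E20, with no overlap, and fell by 4.58 ± 0.94. After quantile normalization RARG did not pass. In the hedgehog list 1 of 10 fell, the signal transducer SMO, by 2.29 ± 0.68, with a list median of -1.37, and it did not pass after quantile normalization.

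HOX genes, which mark position along the body axis, fell in 3 of 27 cases and rose in 0 (median -1.11). HOXA13, of the most posterior paralogue group, was at 12.2 to 108 TPM at E18 (median 26.7) and listed at 0 in all 10 E20 regions (limma, adjusted p = 1.8e-05). HOXA9 was at 3.05 to 85.1 TPM and 0 to 14.4 TPM and fell by 3.49 ± 0.97. HOXA10 fell by 3.38 ± 1.09, and after quantile normalization HOXA13 alone of the 3 passed.

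**Figure D5:**
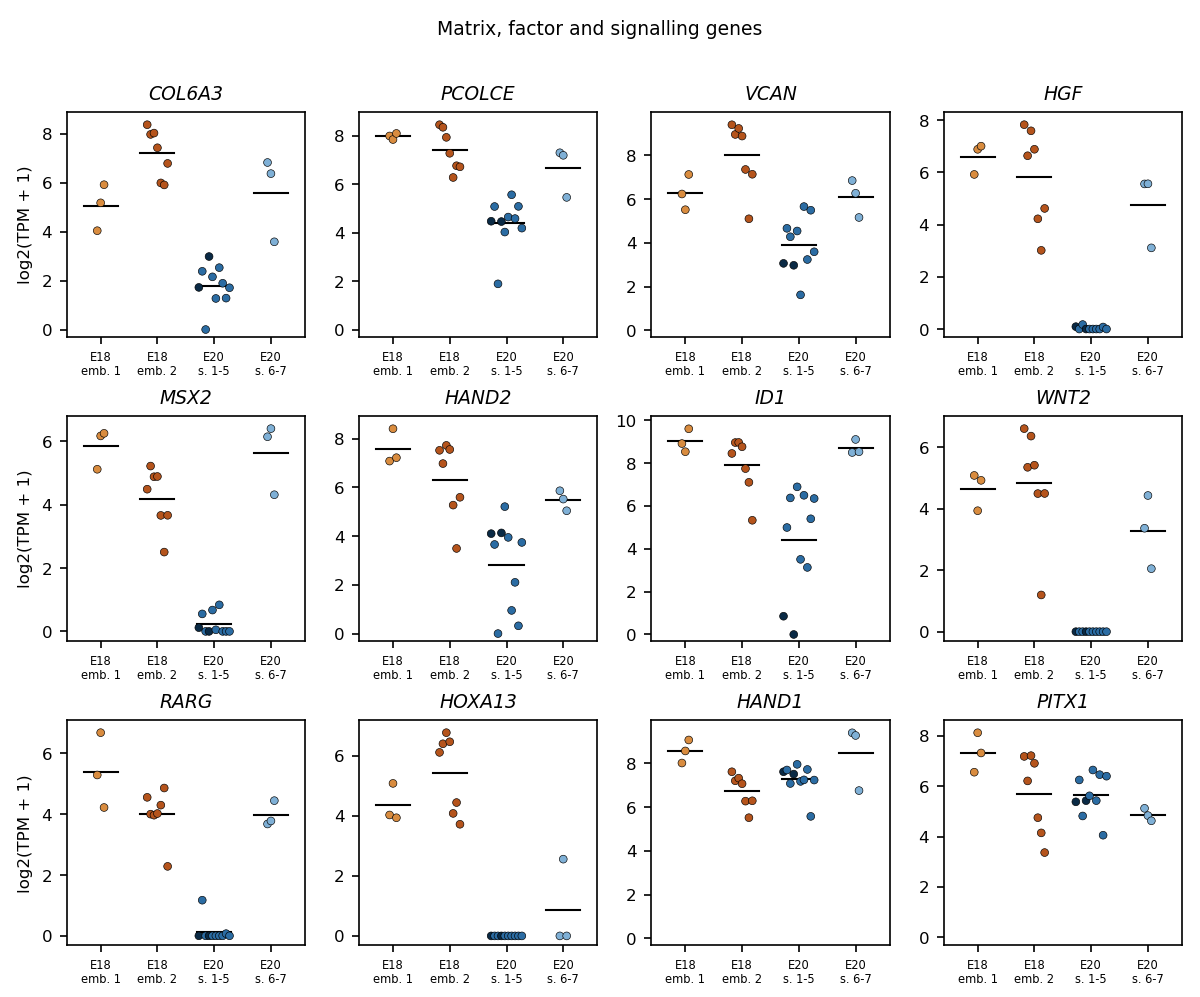
Matrix, factor and signalling genes as log2(TPM + 1) in the chosen regions and in 3 regions of E20 sections 6 and 7. Points are regions, bars are group means, and near-black points are the 2 E20 regions lowest in endoderm genes; HGF, WNT2, MSX2 and HOXA13 are at or near 0 in all 10 regions of E20 sections 1 to 5, while HAND1 and PITX1 overlap between stages.

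The 12 largest falls with separate regions included genes known from epithelia. TMEM54 was at 23.3 to 509.8 TPM at E18 (median 112) and 0 to 4.18 TPM at E20 (median 0), a difference of -6.93 ± 0.66 (limma, adjusted p = 2.1e-22). UPK2, a uroplakin of surface membranes, fell by 6.16 ± 0.75, the vesicle GTPase RAB25 of epithelial cells by 5.81 ± 0.71, and WFDC2, a secreted protein of epithelia, by 5.82 ± 0.61. The epithelial protease PRSS8, the cystatin CST6 and VTCN1, a B7 family protein known from amnion, fell by 5.09 to 5.29.

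Others of the 12 were MME, the cell-surface peptidase neprilysin (-6.0 ± 0.68), SPNS2, an exporter of sphingosine 1-phosphate (-5.93 ± 0.68), and the zinc carrier SLC39A2 (-5.07 ± 0.82), beside HGF. SST, the peptide hormone somatostatin, was at 15.6 to 92.9 TPM at E18 and listed at 0 in all 10 E20 regions. Of 15 amnion and surface ectoderm markers 8 fell and 0 rose (median -3.09), among them TFAP2A by 4.89 ± 0.86 and GATA3 by 4.58 ± 0.62, and 5 passed after quantile normalization. The amnion list stood at 3.38 to 5.31 in the E18 regions and 1.05 to 1.78 in the E20 regions, and its part in these differences was not tested.

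Of 10 epithelial markers CLDN4 and CDH1, genes of cell junctions, fell and 0 rose (median -0.87), and neither passed after quantile normalization. EPCAM, a surface glycoprotein of epithelia, was at 104 to 603 TPM at E18 and 374 to 916 TPM at E20 and did not pass. Of 15 epiblast, streak and nascent mesoderm genes L1TD1, FOXH1 and DNMT3B fell and 0 rose (median -1.93), and 1 passed after quantile normalization.

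Blood and vessel genes varied widely among the E20 regions. HBZ, the embryonic zeta globin, was at 0 to 1.39 TPM at E18 (median 0) and 0.44 to 1641 TPM at E20 (median 265), a difference of 5.99 ± 1.17 (limma, adjusted p = 4.3e-05). At E20 it was at 514 to 1641 TPM in section 1 sector 4, section 2 sector 1, section 3 sectors 2 and 3 and section 4 sector 3, and at 0.44 to 16.7 TPM in the other 5 regions. The mean level of 10 blood markers was 0.37 to 5.41 at E20 and 0.085 to 1.41 at E18. HBZ alone of the 10 rose and 0 fell (median 1.74), and after quantile normalization 4 rose. In the 2 endoderm-poor E20 regions HBZ was at 2.77 and 16.7 TPM. With those 2 regions alone HBZ missed the expression filter and was not tested. The median of the 5 blood genes tested there was -0.69, so it is not over the same genes as 1.74.

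KDR, the VEGF receptor, was at 2.16 to 82.8 TPM and 48.9 to 180.2 TPM and rose by 2.34 ± 0.65, a call that was lost after quantile normalization and with the 2 endoderm-poor regions. EGFL7, a secreted protein of endothelium, was at 35 to 161 TPM and 1.79 to 16.1 TPM and fell by 3.32 ± 0.65. The other 14 of 16 endothelial genes did not pass, with a list median of -0.17, or 0.39 after quantile normalization.

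Of 11 macrophage genes 0 passed in limma, with 2 at an unadjusted p under 0.05 and a median of 0.33. Of 10 mesothelial genes BNC1 rose, by 4.07 ± 0.92, and 0 fell. Among 7 trophoblast genes PAGE4 and CGA rose and GATA3 and TFAP2C, which are also on the amnion list, fell. CGA, the alpha subunit of chorionic gonadotropin, was at 119 to 1745 TPM in the 3 E18 regions of embryo 1, at most 28.4 in the 7 of embryo 2, and 64.9 to 407 TPM at E20. Its rise of 1.95 ± 0.61 was a fall of 1.04 against embryo 1 alone, and PAGE4, whose E18 means were 4.52 in embryo 1 and 0.81 in embryo 2, also differed within E18. After quantile normalization 0 of the 7 rose and 1 fell.

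Housekeeping lists showed small median differences. Of 34 ribosomal protein genes and 13 mitochondrially encoded genes 0 passed in limma and 0 had an unadjusted p under 0.05, with medians of -0.042 and -0.030. Of 18 S phase genes CDT1 fell and 0 rose (median -0.55), and 7 had an unadjusted p under 0.05, a larger share than over all genes. After quantile normalization 0 of them passed and the median was 0.0092. Of 18 G2 and M phase genes 0 passed, with 3 at an unadjusted p under 0.05 (median -0.12). Of 11 immediate early and heat shock genes 0 passed, with 1 at an unadjusted p under 0.05 (median -0.65).

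In glycolysis and hypoxia the peptide hormone ADM rose by 3.44 ± 1.01 and PFKL, a phosphofructokinase, fell by 2.60 ± 0.63, of 15 tested (median 0.44), and neither passed after quantile normalization, nor ADM with the 2 endoderm-poor regions. Of 13 genes for lipid and iron handling, the fatty acid binding proteins FABP1 and FABP3 rose and 0 fell (median 0.41). The FABP3 call was lost after quantile normalization, and the FABP1 call with the 5 E20 regions lowest in endoderm, with the top 5 regions per stage and with the endoderm covariate. FABP3 was at 9.77 to 75.8 TPM at E18 and 103 to 322 TPM at E20, with 322 and 241 TPM in the 2 endoderm-poor regions. FABP1, a gene of absorptive endoderm, was listed at 0 in all 10 E18 regions and read 1.02 to 330 TPM at E20.

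The 3 regions of E20 sections 6 and 7 with the highest m were set against the same E18 regions in a fit of their own, added after the values were seen. Of 12198 genes 8 were called (0.0656%; limma), 3 higher and 5 lower, and 386 had an unadjusted p under 0.05. The 8 were CPE, TAC3 and SNORD113-1, which were higher, and APOD, COLEC11, HOXA13, IFI27 and SEPTIN9, which were lower. CPE, an enzyme that matures peptide hormones, was at 4.47 to 179 TPM at E18, 769, 708 and 46.1 TPM in the 3 regions and 53.8 to 432 TPM in the chosen E20 regions. IFI27, an interferon-induced gene, was at 9.12 to 626 TPM at E18, 2.20 to 3.73 TPM in the 3 regions and 4.61 to 147 TPM in the chosen E20 regions. Over the genes of each fit the median absolute difference was 0.49 for these regions and 0.83 for sections 1 to 5. The comparisons share their E18 regions and differ in the number of E20 regions, so counts of calls are not compared further.

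Within the E20 embryo, values of the chosen regions and of sections 6 and 7 can be set side by side, as a description of 1 animal. SLC5A12 was listed at 0 in all 3 regions of sections 6 and 7, AGTR1 was at 0.23 to 3.96 TPM, CD44 at 0.93 to 3.06, AQP1 at 54.8 to 79.1 and LOX at 5.82 to 11.7. Each of these lay below all 10 chosen regions of sections 1 to 5. HGF was at 46.1, 46.3 and 7.63 TPM in section 7 sector 4, section 6 sector 4 and section 7 sector 2, MSX2 at 69.9, 83.7 and 18.9, WNT2 at 9.32, 20.6 and 3.14 and COL6A3 at 113, 81.9 and 11. Each of these lay above all 10.

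Amnion and surface ectoderm markers were at 3.35 to 5.61 in these 3 regions and endoderm markers at 0.91 to 1.01. GABRP, a receptor subunit known from amnion, was at 436, 455 and 6.89 TPM there and listed at 0 in the 10 chosen regions. HOXA13 was at 4.88 TPM in section 6 sector 4 and listed at 0 in the other 2, against at least 12.2 TPM in every chosen E18 region. FOXF1 was at 0 to 3.12 TPM, below all 10 chosen E20 regions.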

How the data were processed

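The authors deposited TPM values for 17023 genes, with 1 column per region. The submitters' processing notes name fastp, HISAT2 and StringTie. Which genome build was used is not given in the sources used here. No coordinates or sequences are printed. Columns sum to 495547 to 777987 TPM, so genes that were part of the scaling are not in the table. All columns were matched to labels by stage, embryo, section and sector.

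The members and the 32 gene lists were chosen with earlier results of these data known. The test took genes with 5 or more of the 20 regions at 1 TPM or higher, as log2(TPM + 1), averaged within embryo, with limma 3.58.1 (eBayes with a trend, R 4.3.3), E20 minus E18, with Benjamini-Hochberg adjustment at 0.05. The fit has 1 residual degree of freedom and an infinite prior, so the SE follows the trend over all genes and not the spread of the gene itself. Regions are not replicates. A fold change on the log2(TPM + 1) scale understates changes of low genes. Named genes are the 12 largest differences in each direction among called genes with separate regions and a mean TPM of at least 5, up to 6 per list and a panel of developmental genes. On simulated data with 12711 genes, 95% of planted differences of 4 log2 units and 23% of differences of 2 were recovered, with 6 other calls. The simulated spread followed the trend of the E18 pair with expression, for the E20 embryo too, and genes had no spread of their own. That is what the fit assumes, so the 6 calls give no rate of false calls in the real data. Differences were planted only in genes with a mean log2(TPM + 1) over 4. Pictures were drawn with matplotlib 3.10.9. The count for 1 gene list is not reported here.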

Additional observations from a re-analysis of the deposited data

Results flagged for a closer look

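In 70 groups of 10 regions looked at for panel genes and marker list levels, 6 held a region far from the other 9. For normally spread values chance gives about 1 in 20. That rate does not apply where the other 9 regions are all at 0, as for GATA4 and HBZ below. Values are log2(TPM + 1). APOA1 was listed at 0 in E18 embryo 2 section 5 sector 4, with the next lowest at 3.13. E20 section 3 sector 2 stood apart for 3 genes, with HAND1 at 5.58 below a next lowest of 7.08, GATA4 at 1.09 where the other 9 were at 0, and ACTA2 at 1.98 above a next highest of 1.01. TAGLN was at 3.86 in E18 embryo 1 section 4 sector 4, with the next lowest at 6.02. HBZ was at 1.26 in E18 embryo 2 section 1 sector 4, where the other 9 E18 regions were at 0.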

How the results depend on the processing

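The count of 735 called genes was 227 after quantile normalization, 2551 with single regions as samples and the embryo as a random block, 245 with the top 5 regions per stage and 1464 with the 2 E20 regions lowest in endoderm, an alternative added after seeing the data; under the other 8 it was 501 to 1093. The count of 503 genes with separate regions was 937 with the 5 E20 regions lowest in endoderm, 2401 with the 2 lowest, 1696 with the top 5 per stage, 205 with the top 15 and 1039 to 1208 with an E18 embryo left out. Fewer regions separate more easily. An E18 embryo left out leaves 1 embryo against 1 and values with no test. With the endoderm level as a covariate APOB was at -0.15, FABP1 at -0.097 and APOA1 at -0.21, reversed from higher, and with an E18 embryo left out CGA was at -1.04 (without replicate 2) or 4.95 (without replicate 1). Among the named genes, calls were lost for 36 after quantile normalization, 33 with the covariate, 27 with the top 5 regions and 1 to 11 under each other alternative with a test. Why these values changed was not tested. No paired analysis was possible because the stages share only 1 embryo number and it names different animals. The depth per region is unknown, and differences near 2 log2 units were mostly not recovered in simulated data.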
